A study of Mus musculus with 18 samples.

Results

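The p53 pathway was followed in 18 libraries of mouse bone marrow progenitors through 32 named genes: p53 itself (Trp53), its 2 inhibitors Mdm2 and Mdm4, and 29 genes that p53 is known to switch on. The members were taken by symbol from the count tables, where all 32 were found among 29717 symbols. Membership follows from the pathway and its rule uses no measured value, but the members were chosen with earlier results of these data known. Libraries came from lineage-negative bone marrow of BALB/c mice, sorted into populations labelled MPP4, MPP1 and HSC. In each population, mutants carrying a changed Dnmt1 gene were set against wild-type controls: 4 mutant and 4 control libraries in MPP4, 2 and 2 in MPP1, and 3 and 3 in HSC. The genotype field writes the mutants as dnmt1-/-, while the series text speaks of a missense, hypomorphic mutation, so how much Dnmt1 function is left cannot be read from the labels. No treatment is named, ages are not stated, and both genotypes share strain, tissue and sort. HSC stands for haematopoietic stem cell, and in common usage MPP1 and MPP4 are an early and a lymphoid-primed multipotent progenitor.

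p53 is a transcription factor that is made all the time and destroyed all the time. Mdm2, a ubiquitin ligase, marks it for degradation, and Mdm4 helps by covering its activation domain. DNA damage, oncogene activity and other stress free p53 from both, and it then binds a pair of short decamer sequences in its target genes. Those targets stop the cell cycle (Cdkn1a, which encodes the CDK inhibitor p21), start cell death (Bax, Bbc3 and Pmaip1), repair DNA (Xpc, Ddb2 and Polk) and damp metabolism (Sesn1 and Sesn2). Mdm2 is a target as well, which closes a negative feedback loop. Because p53 is controlled mainly as a protein, the level of Trp53 mRNA does not report its activity, while its targets come closer to doing so. In blood stem cells p53 is known for helping to keep cells quiescent and for removing damaged ones, and loss of Dnmt1 is known to activate p53 in mouse fibroblasts.

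The promoters of 4 members are shown because these genes carry the results that follow: Ckap2, Sesn1 and Btg2 differed between populations, and Cdkn1a is the classical p53 target. Each stretch runs 5′ to 3′ from 250 bases before to 50 bases after a RefSeq start of the gene (GRCm38.p6), and capitals mark matches to the p53 decamer consensus. For a gene with several listed starts, the stretch with the most matches is shown.
Ckap2 promoter, chr8:22185770-22186069, minus strand: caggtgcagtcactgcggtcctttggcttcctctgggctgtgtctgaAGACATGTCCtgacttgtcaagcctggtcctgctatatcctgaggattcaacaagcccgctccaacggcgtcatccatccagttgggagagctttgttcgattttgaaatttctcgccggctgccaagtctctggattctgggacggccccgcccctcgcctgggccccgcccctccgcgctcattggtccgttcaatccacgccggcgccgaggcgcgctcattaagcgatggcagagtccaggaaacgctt
Sesn1 promoter, chr10:41887189-41887488, plus strand: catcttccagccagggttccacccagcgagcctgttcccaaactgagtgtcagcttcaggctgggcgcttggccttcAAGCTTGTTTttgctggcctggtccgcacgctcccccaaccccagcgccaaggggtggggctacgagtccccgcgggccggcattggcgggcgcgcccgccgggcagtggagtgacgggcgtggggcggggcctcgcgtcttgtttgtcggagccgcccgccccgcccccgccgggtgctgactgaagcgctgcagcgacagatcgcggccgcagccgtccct
Cdkn1a promoter, chr17:29090729-29091028, plus strand: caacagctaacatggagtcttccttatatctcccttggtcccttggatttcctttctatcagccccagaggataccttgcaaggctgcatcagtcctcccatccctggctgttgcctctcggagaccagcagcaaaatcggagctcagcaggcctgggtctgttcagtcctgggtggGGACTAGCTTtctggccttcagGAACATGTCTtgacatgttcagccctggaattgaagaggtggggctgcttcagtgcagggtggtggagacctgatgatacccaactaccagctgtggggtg
Btg2 promoter, chr1:134079106-134079405, minus strand: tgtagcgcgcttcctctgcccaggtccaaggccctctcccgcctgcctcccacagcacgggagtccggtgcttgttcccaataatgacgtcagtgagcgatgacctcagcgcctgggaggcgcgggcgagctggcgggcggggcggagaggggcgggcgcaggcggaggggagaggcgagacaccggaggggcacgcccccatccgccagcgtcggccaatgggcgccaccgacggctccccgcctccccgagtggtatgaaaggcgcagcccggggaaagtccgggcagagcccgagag
A promoter entry was matched for 24 of the 32 members, with 32 promoters in all. The decamer consensus, which reads the same on both strands, was found in 12 of these 32 promoters (37.5%), against 8.36% of 32851 promoters of the same length over all genes. Cdkn1a alone among the matched members held a pair of decamers at most 13 bases apart, against 0.0731% of all promoters. Its marked decamer GAACATGTCT is followed directly by tgacatgttc, which misses the consensus by 1 letter and so is not in capitals. Cdkn1a was also the only matched member with CATG cores spaced as in such adjoining decamers, against 0.712% of all promoters. Ckap2 held 1 decamer and Btg2 held none. Sesn1 and Cdkn1a have another listed promoter each, which held none and for that reason is not the one shown. A match is a description of letters and not of binding, and known p53 sites often lie outside such a window, in the first intron or further upstream. Xpc and Pmaip1 are named only.

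Levels are given in CPM, counts scaled to a common library total with TMM factors. The libraries were made by CEL-Seq2, which counts molecules at their poly(A) end, so a CPM value stands for a share of molecules and needs no division by gene length. Total counts per library ran from 354642 to 1943562, with a median of 745850.5. At this depth 20 of the 32 members had a count in all 18 libraries, and 6 were too low to enter any test: Plk3, Eda2r, Fas, Perp, Dram1 and Gdf15. Dnmt1 mRNA was present in every library, from 230 to 320.5 CPM in MPP4 mutants and 239 to 391 CPM in MPP4 controls, 223 to 289 CPM in MPP1 mutants and 289 to 297 CPM in MPP1 controls, and 118 to 309 CPM in HSC mutants and 97.8 to 278 CPM in HSC controls. Its edgeR adjusted p was 0.714 or higher in each population, and a transcript level does not check a missense allele. Markers set MPP4 apart: all 12 lymphoid-priming genes tested were higher in MPP4 than in HSC at the threshold used below, and 15 of 17 stem cell identity genes were lower. Between MPP1 and HSC none of the 12 and 1 of the 17, lower in MPP1, passed, so these markers do not check the MPP1 label. Some libraries stood apart in markers of other lineages, summed over each list. Erythroid markers reached 234977 CPM in MPP4 mutant 2, 43666 CPM in MPP4 control 4, 31971 CPM in MPP1 control 2 and 14887 CPM in HSC mutant 1, against 315 to 1069 CPM in the other libraries. B cell markers reached 34826 CPM in HSC control 1 and 12123 CPM in MPP4 mutant 3, and neutrophil markers 38701 CPM in MPP4 mutant 2. Column names carry ID numbers that the labels do not call animals. Every p-value below therefore rests on the scatter among libraries, some of which may be technical. For single genes named below as called, and for members that gained a call, values without these 6 libraries are given where a call was lost or gained or a called value moved by over 1.5 times.

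Between populations, Xpc, Btg2, Ckap2 and Sesn1 were higher in MPP4 than in HSC, by 1.39, 1.44, 0.88 and 0.48 on the log2 scale. Pmaip1 passed as well, on 1 count in all HSC libraries, but it entered the test only through the libraries where it is high. No member was lower. Counting Pmaip1, that is 5 of the 23 members tested. Of the 10613 genes tested, 10.9% were higher, 9.15% were lower and 20.0% were called in either direction. The share of members called in either direction is thus near that of all genes. At an unadjusted p under 0.05 there were 7 members, beside 28.9% of all genes. The median log2 difference over the 23 members was -0.06, and over all genes tested it was -0.03. Trp53, Mdm2, Mdm4 and Cdkn1a did not pass the test. Calls use edgeR's quasi-likelihood test with a Benjamini-Hochberg adjusted p under 0.05, in 1 model over all 18 libraries. The 8 ID numbers, 4 per genotype, form blocks in that model, and 6 of them have both an MPP4 and an HSC library. In these bulk libraries a change in RNA per cell and a change in the share of cells of one kind cannot be told apart.

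Trp53 mRNA was at a similar level in all 3 populations. It stood at 192, 94.5, 223 and 201 CPM in MPP4 mutants and at 129, 108, 228 and 192 CPM in MPP4 controls. In MPP1 it stood at 199 and 258 CPM in mutants and at 254 and 169 CPM in controls. In HSC it stood at 184, 248 and 145 CPM in mutants and at 116, 184 and 224 CPM in controls. The ranges of all 6 groups overlap. Trp53 differed by 0.10 (SE 0.14) between MPP4 and HSC on the log2 scale, by -0.06 (SE 0.16) between MPP4 and MPP1 and by 0.16 (SE 0.16) between MPP1 and HSC. The 95% intervals of these differences, -0.18 to 0.37, -0.39 to 0.26 and -0.16 to 0.48, all lie inside a 1.5-fold change in either direction. Mdm2 averaged 62.6 ± 17.1 CPM in MPP4 (SD, n = 8), 65.5 ± 11.002 CPM in MPP1 (n = 4) and 65.3 ± 13.5 CPM in HSC (n = 6), neighbours that do not differ beyond their spread. Mdm4 averaged 101 ± 27.8, 116 ± 30.6 and 102 ± 30.1 CPM in the same order.

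**Figure D1:**
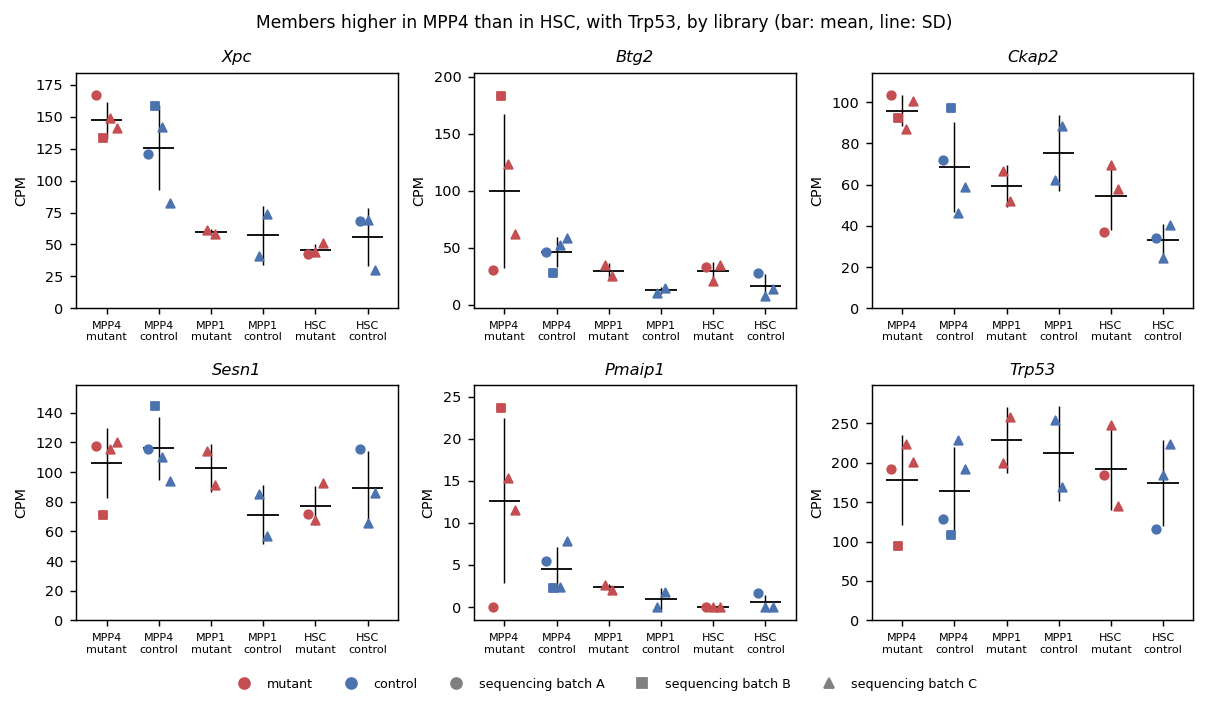
Level in CPM (vertical axis) of the 5 members higher in MPP4 than in HSC, and of Trp53, in every library, by population and Dnmt1 genotype (horizontal axis); points are libraries shaped by sequencing batch, bars are group means and lines are SDs. Every MPP4 library lies above every HSC library for Xpc, with 82.1 CPM as the lowest MPP4 value, while the 6 groups overlap for Trp53.

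Xpc (chr6:91489305-91515888, GRCm38, minus strand), which encodes the protein that detects helix distortion at the start of nucleotide excision repair, had the smallest adjusted p of the members. It had 167, 133, 149 and 141 CPM in MPP4 mutants and 121, 159, 142 and 82.1 CPM in MPP4 controls. MPP1 libraries had 61.2 and 58.2 CPM in mutants and 40.8 and 73.6 CPM in controls. HSC libraries had 42.2, 43.8 and 51.1 CPM in mutants and 68.5, 69.1 and 29.6 CPM in controls. All 8 MPP4 libraries lie above all libraries of MPP1 and HSC, which overlap each other. The log2 difference between MPP4 and HSC was 1.39 (SE 0.17, adjusted p = 2.15e-07), and Xpc was higher in MPP4 in 6 of 6 ID numbers with both populations. Between MPP4 and MPP1 it was 1.20 (SE 0.22, adjusted p = 0.000204, 4 of 4 ID numbers), but it did not hold with HSC control 2, MPP1 control 1 and MPP4 control 3, which share 1 ID number, left out (0.65, adjusted p = 0.178), or in control libraries alone (1.11, adjusted p = 0.0859). Of these, MPP4 control 3 had 142 CPM and MPP1 control 1 had 40.8 CPM.

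No other repair gene passed. Ddb2, which works beside Xpc in damage recognition, had a log2 difference of 0.52 (SE 0.30, adjusted p = 0.257) between MPP4 and HSC and was higher in MPP4 in 5 of 6 ID numbers. Rrm2b (a ribonucleotide reductase subunit), Ercc5 (the XPG endonuclease) and Polk (a translesion polymerase) had differences of -0.44, -0.11 and -0.10, none past the threshold. So 1 of 5 tested repair members was called, beside 20.0% of all genes, and differences between these genes were not tested.

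Among cell cycle members, Btg2 and Ckap2 were called and 5 others tested were not. Btg2 (chr1:134075170-134079120, minus strand) is an antiproliferative gene that is also an immediate-early gene. It had 30.3, 183, 123 and 62.2 CPM in MPP4 mutants and 45.7, 27.6, 52.4 and 58.6 CPM in MPP4 controls. It had 34.6 and 25.0 CPM in MPP1 mutants and 10.4 and 14.7 CPM in MPP1 controls. HSC mutants had 33.2, 20.6 and 34.6 CPM and HSC controls 27.7, 7.27 and 13.5 CPM. MPP4 mutant 2 and MPP4 mutant 3 stand highest, and the lowest MPP4 libraries overlap those of HSC. The log2 difference was 1.44 (SE 0.26, adjusted p = 0.000148) between MPP4 and HSC, higher in 5 of 6 ID numbers, and 1.67 (SE 0.33, adjusted p = 0.000813) between MPP4 and MPP1, higher in 4 of 4. Within controls alone the difference from HSC was 1.77 (adjusted p = 0.0017), and without the libraries with other-lineage markers it was 2.20. The call against MPP1 was lost in mutant libraries alone (1.33, adjusted p = 0.0587) and in a model with a batch term but no ID blocks (adjusted p = 0.0926).

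Ckap2 (chr8:22168160-22185819, minus strand) encodes a spindle protein made in dividing cells. It had 104, 92.4, 87.2 and 101 CPM in MPP4 mutants and 71.9, 97.1, 46.1 and 58.6 CPM in MPP4 controls. It had 66.5 and 52.0 CPM in MPP1 mutants and 62.3 and 88.4 CPM in MPP1 controls. HSC mutants had 36.8, 69.6 and 57.7 CPM and HSC controls 34.2, 24.5 and 40.4 CPM. MPP4 was higher in 6 of 6 ID numbers, although the groups overlap when ID numbers are ignored. The log2 difference from HSC was 0.88 (SE 0.18, adjusted p = 0.000278). Ckap2 is itself periodic in the cell cycle. A list of cell cycle genes that p53 is known to turn down through p21 and the DREAM repressor complex was set beside it. In that list 18 of 18 genes had a log2 difference between MPP4 and HSC above 0. How many of all genes lie above 0 was not counted, and the list was chosen with earlier results known, so no result is read from that number. The summed level of that list was 3105 to 3439 CPM in MPP4 mutants and 1753 to 2380 CPM in MPP4 controls, against 1388 to 1554 CPM in HSC mutants and 685 to 1070 CPM in HSC controls. The part of proliferation in the Ckap2 difference was not tested.

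The cell cycle members that were not called include the best known. Cdkn1a, the p21 gene, stayed low everywhere, with 7.59, 23.6, 28.2 and 19.7 CPM in MPP4 mutants and 10.97, 26.7, 8.60 and 7.82 CPM in MPP4 controls. It had 0 and 16.6 CPM in MPP1 mutants and 11.1 and 0 CPM in MPP1 controls, and from 5.38 to 14.6 CPM in the 6 HSC libraries. Its log2 difference between MPP4 and HSC was 0.46 (SE 0.45, 95% interval -0.46 to 1.38), too wide at this depth to tell a 2-fold change from none. Gadd45a, a stress-induced growth arrest gene, had a difference of -0.87 (SE 0.33, adjusted p = 0.0605), and Ccng1 (cyclin G1) one of -0.42 (SE 0.18, adjusted p = 0.103). In mutant libraries alone both were lower in MPP4 than in HSC, at -1.78 (adjusted p = 0.00487) for Gadd45a and -0.78 (adjusted p = 0.0406) for Ccng1. Gadd45a also passed with the ID number of HSC control 1 left out (-1.07, adjusted p = 0.0456) or that of HSC mutant 3 (-1.01, adjusted p = 0.0480). Plk2 (-0.60) and Zmat3 (0.07) were not called, but Plk2 passed without the libraries with other-lineage markers (-1.21, adjusted p = 0.0281).

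Of 13 cell death members 6 could be tested, and Pmaip1, which encodes the BH3-only protein Noxa, was called. It had 0, 23.6, 15.4 and 11.5 CPM in MPP4 mutants and 5.48, 2.23, 2.34 and 7.82 CPM in MPP4 controls. MPP1 libraries had 2.66 and 2.08 CPM in mutants and 0 and 1.84 CPM in controls, and among HSC libraries only HSC control 1, at 1.63 CPM, had a count. In counts this is 50 molecules over 8 MPP4 libraries, 3 over 4 MPP1 libraries and 1 over 6 HSC libraries. The pooled ratio of MPP4 to HSC was 29.97 with a 95% counting interval from 5.14 to 1207. That interval covers counting noise only and leaves out the scatter among libraries and the ID numbers. It also pools MPP4 control 2 and MPP4 mutant 2, whose ID numbers have no HSC library. Pmaip1 entered the test only through the libraries where it is high, and its adjusted p, 0.00482, became 0.129 with the ID number of HSC mutant 2 left out and 0.0592 without the 6 libraries with other-lineage markers. The other tested cell death members, Bax (-0.39, SE 0.20, adjusted p = 0.191), Apaf1 (-0.05), Ei24 (-0.30), Tnfrsf10b (-0.73) and Trp53inp1 (0.48), were not called, although Trp53inp1 passed with the ID number of HSC control 1 left out (0.85, adjusted p = 0.0161). Bbc3, which encodes the BH3-only protein Puma, had 1.64 to 10.7 CPM in MPP4 and 8.07 to 13.04 CPM in HSC. Phlda3, which encodes an inhibitor of Akt, had 4.88 to 12.8 CPM in MPP4 and 1.63 to 6.28 CPM in HSC. Both were too low for the model and were not tested, but within all 6 ID numbers Bbc3 was lower and Phlda3 higher in MPP4 than in HSC. The other untested cell death members, Aen, Perp, Dram1, Eda2r and Fas, did not keep 1 direction in all 6. How many of all genes keep 1 direction was not counted, so no result is read from Bbc3 and Phlda3.

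Sesn1 (chr10:41809935-41908424, plus strand) encodes a sestrin, which restrains mTORC1 signalling. It had 118, 70.9, 115 and 120.4 CPM in MPP4 mutants and 116, 145, 110.2 and 93.8 CPM in MPP4 controls. HSC mutants had 71.8, 67.9 and 92.4 CPM and HSC controls 116, 65.4 and 86.2 CPM, and MPP1 libraries had 114 and 91.5 CPM in mutants and 85.3 and 57.1 CPM in controls. MPP4 and HSC overlap, and under the ID number of HSC control 1 both stood at 116 CPM. The log2 difference was 0.48 (SE 0.15, adjusted p = 0.0208). It lost its call when the ID number of HSC control 2 was left out (0.35, adjusted p = 0.213), when that of HSC mutant 2 was left out (0.42, adjusted p = 0.127), in controls alone (0.32, adjusted p = 0.478) and in a model with a batch term but no ID blocks (adjusted p = 0.0966), and its value was 0.80 without the libraries with other-lineage markers. Xpc, Btg2 and Ckap2 stayed past the threshold against HSC in all 15 alternative settings tried, Sesn1 in 11 of 15, and Pmaip1 in 8 of the 10 in which it could be tested.

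Against MPP1, Xpc and Btg2 were the 2 of 23 members higher in MPP4, beside 5.72% of all genes higher, 5.42% lower and 11.1% called in either direction. At an unadjusted p under 0.05 there were 4 members, beside 22.3% of all genes. Rrm2b had the largest difference the other way, -0.86 (SE 0.36, adjusted p = 0.130). Between MPP1 and HSC no member was called, beside 0.367% of all genes. At an unadjusted edgeR p under 0.05 there were 2 members, Ckap2 at 0.68 (SE 0.22, adjusted p = 0.262, but 1.32 with an adjusted p of 0.0323 in controls alone) and Bax at -0.71 (SE 0.26, adjusted p = 0.393), beside 8.37% of all genes.

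The Dnmt1 comparison asked whether the mutation moved the p53 programme inside each population. No member passed the threshold in MPP4 (0 of 19 tested), MPP1 (0 of 17) or HSC (0 of 17), or when counts were summed per ID number (0 of 25). Few genes passed at all: 0.0852%, 0.225%, 0.241% and 0.227% of those tested in the same order. DESeq2 also called 0 members in each of the 4 comparisons. At an unadjusted edgeR p under 0.05 there were 2, 1, 3 and 3 members, beside 7.11%, 4.86%, 10.01% and 6.98% of all genes, so each count stands within 2 members of the number those shares give. The median log2 fold change over the tested members was 0.13, 0.20, 0.03 and 0.13, and over all genes it was -0.004, -0.004, 0.01 and 0.004. The data limit large shifts for only some members: the 95% interval stayed within a 2-fold change for 10 of 19 members in MPP4, 6 of 17 in MPP1, 5 of 17 in HSC and 14 of 25 in the sums.

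**Figure D2:**
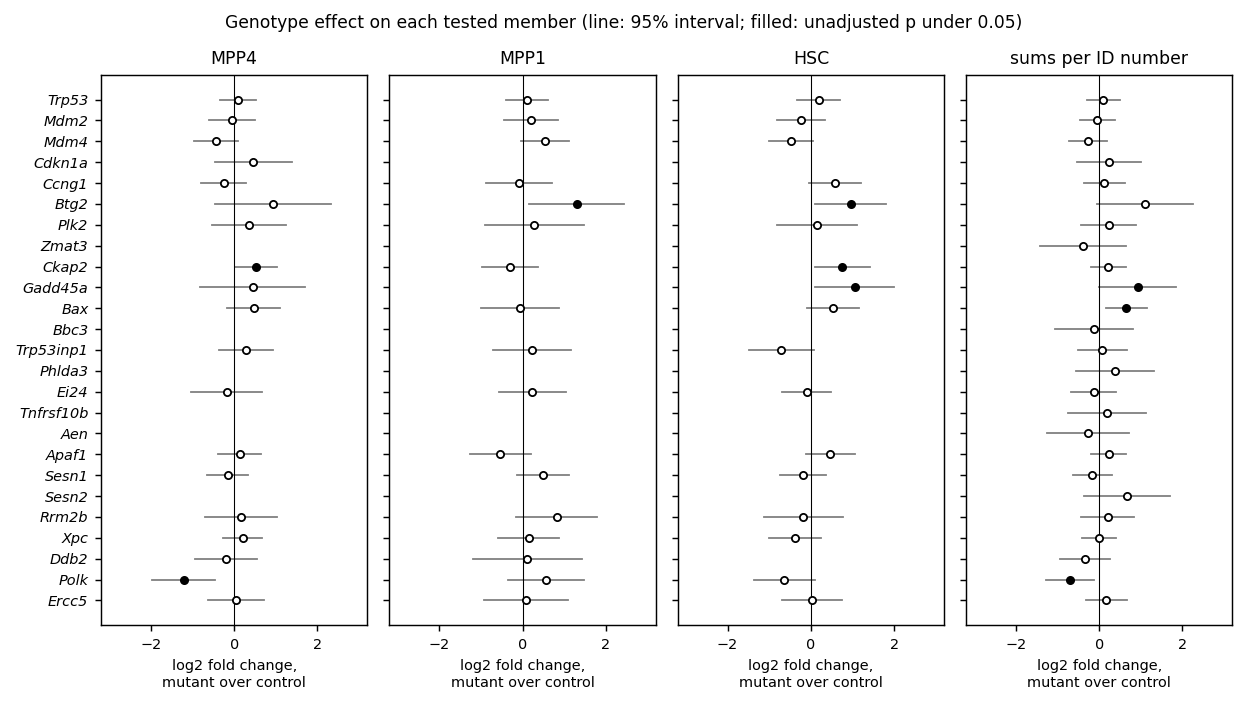
Log2 fold change of mutant over control (horizontal axis) with its 95% interval for the 25 members that could be tested (vertical axis), in MPP4, MPP1, HSC and the sums per ID number; filled points have an unadjusted edgeR p under 0.05, and a member without a point was not tested in that panel. No member reached an adjusted p under 0.05, and the lowest point is Polk in MPP4 at -1.21.

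The core of the pathway showed no called change. Trp53 had log2 fold changes of 0.09 (SE 0.20) in MPP4, 0.11 (SE 0.25) in MPP1, 0.18 (SE 0.25) in HSC and 0.10 (SE 0.19) in the sums. Mdm2 is both the main inhibitor of p53 and one of its targets. It had 43.0, 83.8, 84.6 and 43.4 CPM in MPP4 mutants and 61.5, 73.1, 64.9 and 46.9 CPM in MPP4 controls. It had 58.5 and 81.1 CPM in MPP1 mutants, 65.2 and 57.1 CPM in MPP1 controls, 50.2, 53.3 and 80.8 CPM in HSC mutants, and 78.2, 72.7 and 56.6 CPM in HSC controls. Mutants and controls overlap in each population, with fold changes of -0.05 (SE 0.27), 0.20 (SE 0.31) and -0.24 (SE 0.28), and -0.04 (SE 0.20) in the sums. When single libraries or ID numbers were left out, the sign of Trp53 changed in all 4 comparisons and that of Mdm2 in MPP4, MPP1 and the sums.

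Mdm4 was the core member with the smallest p in each population, in different directions. It had 44.3, 88.1, 128.2 and 93.4 CPM in MPP4 mutants and 107, 97.6, 114 and 133 CPM in MPP4 controls, a fold change of -0.44 (SE 0.25, adjusted p = 0.799). It was -0.48 (SE 0.26, adjusted p = 0.536) in HSC, with 58.3, 104 and 102 CPM in mutants and 109, 151 and 88.9 CPM in controls. In MPP1 it was 0.54 (SE 0.28, adjusted p = 0.999), where both mutants, at 146 and 131 CPM, lay above both controls, at 111.95 and 75.5 CPM. By sequencing batch the log2 ratio in MPP4 was -1.27 in batch A, -0.15 in batch B and -0.16 in batch C.

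Polk (chr13:96480690-96542579, minus strand), which encodes DNA polymerase kappa, had the smallest p of any member. It had 7.59, 10.7, 20.5 and 20.5 CPM in MPP4 mutants and 31.7, 31.2, 29.7 and 39.1 CPM in MPP4 controls. All 4 mutants lie below all 4 controls, which in MPP4 was true of 1.55% of all genes tested. The log2 fold change was -1.21 (SE 0.36, edgeR adjusted p = 0.284), so it did not pass the correction over all genes. The log2 ratio was -2.06 in batch A, -1.54 in batch B and -0.75 in batch C, and -1.14 without the libraries with other-lineage markers. HSC had 16.1, 23.2 and 18.1 CPM in mutants and 22.8, 38.2 and 27.0 CPM in controls (-0.64, SE 0.36, adjusted p = 0.555), with overlap. MPP1 went the other way, with 34.6 and 33.3 CPM in mutants above 28.2 and 14.7 CPM in controls (0.56, SE 0.45, adjusted p = 0.999). In the sums Polk was at -0.71 (SE 0.27, adjusted p = 0.627). In the authors' deposited table for MPP4 Polk also had the smallest p of the members, 0.017 before adjustment.

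**Figure D3:**
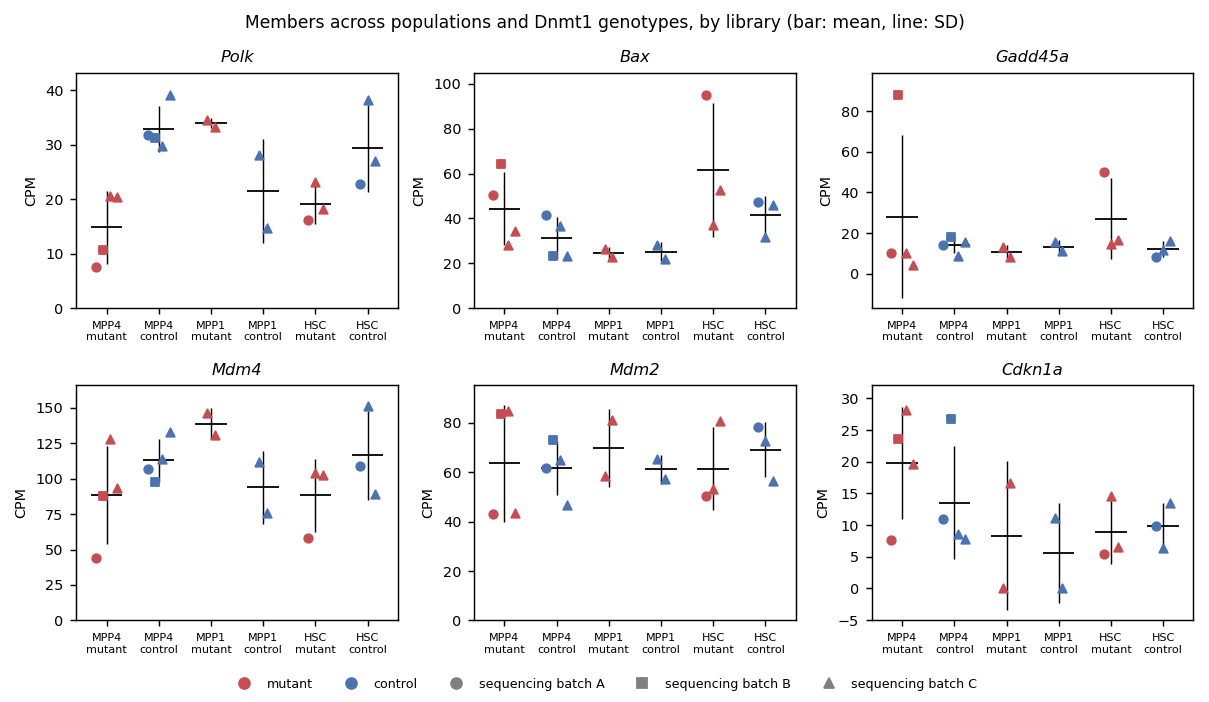
Level in CPM (vertical axis) of Polk, Bax, Gadd45a, Mdm4, Mdm2 and Cdkn1a in every library, by population and Dnmt1 genotype (horizontal axis); points are libraries shaped by sequencing batch, bars are group means and lines are SDs. All 4 MPP4 mutants lie below the 4 MPP4 controls for Polk, and 88.1 CPM in MPP4 mutant 2 and 50.2 CPM in HSC mutant 1 stand above the rest for Gadd45a.

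Of the cell cycle members tested, 5 of 6 in MPP4, 2 of 4 in MPP1 and 5 of 5 in HSC had a fold change above 0, and none passed. The share of all genes above 0 was not counted, so no result is read from these signs. Btg2 was above 0 in each population, at 0.92 (SE 0.58) in MPP4, 1.30 (SE 0.55) in MPP1, 0.95 (SE 0.42) in HSC and 1.10 (SE 0.48) in the sums, with adjusted p of 0.854, 0.933, 0.445 and 0.722. It passed in 1 alternative, the sums over unfiltered genes (1.05, adjusted p = 0.00699), and was 0.34 in the sums without the libraries with other-lineage markers. Its batches differed in MPP4, with log2 ratios of -0.59 in batch A, 2.72 in batch B and 0.74 in batch C. Genes of the immediate-early response, to which Btg2 also belongs, differed between the same groups. A list of 21 such genes was used, which also holds the heat-shock genes Hspa1a and Hspa1b. It was chosen with earlier results of these data known, so its counts of called genes are a description and not a test of the list. In MPP4 mutants 2 of 15 tested passed the threshold as higher, and in MPP1 mutants 5 of 14. In HSC mutants 7 of 15 passed as higher, and in the sums 6 of 18. Over all genes tested 0.0852%, 0.225%, 0.241% and 0.227% were called in the same order, in either direction. The summed level of the list ran from 1583 to 4425 CPM in MPP4 mutants and 940 to 1434 CPM in MPP4 controls. It ran from 2917 to 4724 CPM in MPP1 mutants and 1233 to 1759 CPM in MPP1 controls. In HSC it ran from 2724 to 4451 CPM in mutants and 1622 to 1748 CPM in controls. The part of these genes in the Btg2 values was not tested.

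Ckap2 had fold changes of 0.53 (SE 0.24, adjusted p = 0.685) in MPP4 and 0.75 (SE 0.32, adjusted p = 0.439) in HSC, and -0.31 (SE 0.32, adjusted p = 0.999) in MPP1. The list of cell cycle genes under p21 and DREAM had the same signs: 18 of 18 members had a fold change above 0 in MPP4 mutants (median 0.58), 17 of 17 in HSC mutants (median 0.85) and 2 of 17 in MPP1 mutants (median -0.42). How many of all genes lie above 0 was not counted, so no result is read from these numbers. Only Tyms, thymidylate synthase, passed, in HSC (1.53, SE 0.31, adjusted p = 0.0187). It lost its call in 8 of 15 alternative settings, among them DESeq2 (adjusted p = 0.0693), no batch term (0.359) and the fit without the libraries with other-lineage markers (0.0741), with values from 1.45 to 1.57 and adjusted p from 0.00122 to 0.359 over the 15. Cdkn1a itself could be tested in MPP4 (0.45, SE 0.44, adjusted p = 0.918) and in the sums (0.24, SE 0.36, adjusted p = 0.931). Mutants and controls overlap for Cdkn1a in all 3 populations.

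Gadd45a and Bax, stress and death genes, were high in the same 2 mutant libraries. Gadd45a had 10.1, 88.1, 10.3 and 4.09 CPM in MPP4 mutants and 14.0, 18.3, 8.60 and 15.6 CPM in MPP4 controls, and in HSC 50.2, 14.6 and 16.5 CPM in mutants and 8.15, 11.8 and 16.2 CPM in controls. The values of MPP4 mutant 2 and HSC mutant 1 stand far above the others, and these libraries hold the most erythroid marker RNA among the mutants of their populations, 234977 and 14887 CPM. The fold change was 1.05 (SE 0.46, adjusted p = 0.449) in HSC, 0.21 in a fit of the batch C libraries of HSC alone, 0.92 (SE 0.41, adjusted p = 0.713) in the sums and -0.27 in the sums without the libraries with other-lineage markers. Bax, the pore-forming effector of mitochondrial cell death, was highest among the mutants of MPP4 and of HSC in the same libraries, at 64.4 CPM in MPP4 mutant 2 and 95.1 CPM in HSC mutant 1. The other MPP4 mutants had 50.6, 28.2 and 34.4 CPM, and MPP4 controls had 41.4, 23.2, 36.7 and 23.5 CPM. The other HSC mutants had 37.0 and 52.8 CPM, and HSC controls had 47.3, 31.8 and 45.8 CPM. Its fold change in the sums was 0.65 (SE 0.23, adjusted p = 0.581), and 0.13 without those libraries. MPP1, with 26.6 and 22.9 CPM in mutants and 28.2 and 22.1 CPM in controls, showed overlap. MPP4 mutant 2 and HSC mutant 1 also held the most neutrophil marker RNA among the mutants of their populations, 38701 and 2921 CPM. MPP4 control 4, with 43666 CPM of erythroid markers, had 15.6 CPM of Gadd45a and 23.5 CPM of Bax. MPP1 control 2, with 31971 CPM of erythroid markers, had 22.1 CPM of Bax, and Gadd45a was at most 15.6 CPM in MPP1 controls. The part of erythroid or neutrophil RNA in the Gadd45a and Bax values was not tested.

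The other members passed no genotype test either. Xpc, called between populations, had genotype fold changes of 0.20 (SE 0.22) in MPP4, 0.14 (SE 0.35) in MPP1 and -0.38 (SE 0.30) in HSC. In HSC, Ccng1 was at 0.57 (SE 0.31, adjusted p = 0.539) and Trp53inp1, a stress gene that promotes autophagy and cell death, at -0.71 (SE 0.38, adjusted p = 0.542). Ei24 ran from 11.7 to 65.9 CPM over the 18 libraries, Ercc5 from 14.7 to 40.4 CPM, Plk2 from 5.39 to 34.6 CPM and Ddb2 from 7.98 to 32.96 CPM. Zmat3, Tnfrsf10b (a TRAIL receptor), Aen (an exonuclease active in apoptosis) and Sesn2 stayed at or below 31.3, 18.4, 18.8 and 18.7 CPM. None of these 8 had an adjusted p under 0.05 in any genotype comparison. The 6 members without a test held 9 counts (Gdf15), 11 (Fas), 29 (Eda2r), 30 (Perp), 39 (Plk3) and 55 (Dram1) over all libraries, so a change in them was not detectable at this depth. The 3′ ends of Ddb2 and Plk3 overlap genes on the other strand, and whether counting used strand is not given in the sources used here.

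In MPP1, with 2 libraries of each genotype, 5 of 17 tested members had both mutants above both controls (Btg2, Mdm4, Polk, Rrm2b and Sesn1) and 1, Apaf1, had both below. Over all genes tested, 16.4% had both mutants above and 17.4% had both below. Rrm2b had 34.6 and 27.0 CPM in mutants and 17.8 and 16.6 CPM in controls (0.82, SE 0.47, adjusted p = 0.999). Sesn1 had 114 and 91.5 CPM in mutants and 85.3 and 57.1 CPM in controls (0.49, SE 0.30, adjusted p = 0.999). Apaf1, the scaffold of the apoptosome, had 66.5 and 31.2 CPM in mutants and 69.0 and 70.0 CPM in controls, so that 1 low mutant library carries its difference. In MPP4 no member had all mutants above all controls, beside 1.49% of all genes, and in HSC none was separated in either direction, beside 5.03% higher and 4.42% lower.

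Whether the mutation acted differently between populations was tested directly. No member had a called difference of the genotype effect between MPP4 and HSC or between MPP1 and HSC, beside 0.0283% and 0% of all genes, and 3 members in each had an unadjusted edgeR p under 0.05, beside 3.88% and 4.76% of all genes. The smallest p belonged to Gadd45a between MPP4 and HSC (-1.85, SE 0.65, adjusted p = 1) and to Ckap2 between MPP1 and HSC (-1.28, SE 0.43, adjusted p = 0.917). In the authors' deposited tables no member had an adjusted p under 0.05 in any population.

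**Figure D4:**
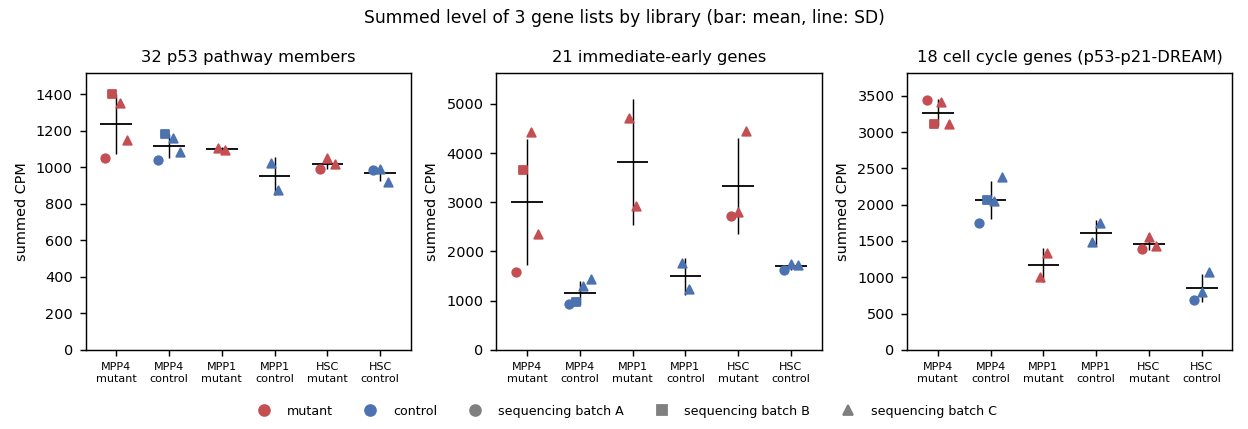
Summed level in CPM (vertical axis) of the 32 members, of 21 immediate-early genes and of 18 cell cycle genes under p21 and DREAM, in every library, by population and Dnmt1 genotype (horizontal axis); points are libraries shaped by sequencing batch, bars are group means and lines are SDs. The members' sum ran from 876 to 1398 CPM over all groups, with mutants and controls overlapping in MPP4 and HSC, while the immediate-early sum of every mutant lies above that of every control of its population.

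Over all 32 members the summed level was 1049 to 1398 CPM in MPP4 mutants and 1037 to 1184 CPM in MPP4 controls, 1096 to 1106 CPM in MPP1 mutants and 876 to 1025 CPM in MPP1 controls, and 989 to 1049 CPM in HSC mutants and 919 to 993 CPM in HSC controls. Mutants and controls overlap in MPP4 and in HSC and do not in MPP1. Trp53 had the highest median level over the libraries of any member, at 192 CPM, so the sum leans on it.

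Genes upstream of p53 were also tested between MPP4 and HSC, where 20.0% of all genes were called. Of 25 listed kinases, cofactors and regulators, 23 were matched and 21 tested. Chek1, the checkpoint kinase of replication stress, was the only one called between MPP4 and HSC (0.90, SE 0.20, adjusted p = 0.00104), and it too peaks in dividing cells. Without the libraries with other-lineage markers it was 0.51 (adjusted p = 0.334) and lost its call, the only loss in 15 alternative settings. Chek2, the kinase downstream of Atm, had a difference of 0.43 (SE 0.22, adjusted p = 0.194), and Ppm1d, the phosphatase Wip1 that shuts p53 signalling off, one of 0.13 (SE 0.27, adjusted p = 0.825). None of the 21 was called for genotype in any population or in the sums. For Chek1 and Chek2 the fold changes in the sums were -0.17 (SE 0.21) and -0.07 (SE 0.21). Cop1 and Cdkn2a were not analysed here.

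Of 39 further p53 targets outside the members, 29 could be tested between populations, with 4 higher and 2 lower in MPP4 than in HSC, a share near the 20.0% of all genes called. The higher ones were Trp53i11 (0.94, SE 0.17), Gtse1 (1.36, SE 0.37), Fdxr (0.82, SE 0.27) and Ier5 (0.65, SE 0.20). Gtse1 encodes a G2 and S phase protein that restrains p53, and Fdxr a mitochondrial ferredoxin reductase. Ndn, which encodes necdin, a growth suppressor of quiescent stem cells, was lower (-1.70, SE 0.32), as was the adenylate kinase gene Ak1 (-1.63, SE 0.41). Ndn kept its call in all 15 alternative settings. Without the libraries with other-lineage markers the calls of Trp53i11 (0.63, adjusted p = 0.0876), Gtse1 (1.46, 0.0718), Ier5 (0.74, 0.0875) and Ak1 (-1.36, 0.0866) were lost, and Fdxr was at 1.33. In controls alone Trp53i11 (0.56, adjusted p = 0.126), Gtse1 (1.34, 0.209), Ier5 (0.40, 0.485), Fdxr (0.99, 0.159) and Ak1 (-1.45, 0.0972) did not pass. Calls were lost in 7 of 14 settings for Fdxr, 5 of 15 for Ier5, 3 of 14 for Gtse1, 3 of 14 for Ak1 and 2 of 15 for Trp53i11. Against MPP1, Ier5 (1.19, SE 0.26), Bid (0.94, SE 0.25) and Psrc1 (1.35, SE 0.45) were higher in MPP4 and Ndn (-1.52, SE 0.39) and Ndrg1 (-0.63, SE 0.21) were lower. These calls were lost in 9 of 15 settings for Ndrg1, 7 of 13 for Psrc1, 6 of 15 for Ndn, 4 of 15 for Bid and 2 of 15 for Ier5. In controls alone Bid was at 0.33 (adjusted p = 0.760), Psrc1 at 0.42 (0.849), Ndn at -1.48 (0.122) and Ndrg1 at -0.45 (0.539). Without the libraries with other-lineage markers Ndrg1 was at -0.49 (adjusted p = 0.252), and Psrc1, still called, at 2.01. Bid encodes the BH3-only protein that links death receptors to Bax. For genotype, 0 of 23 were called in MPP4, 0 of 17 in MPP1, 0 of 23 in HSC and 0 of 31 in the sums.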

How the data were processed

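Libraries were made by CEL-Seq2 from cells sorted into lysis buffer, per the labels' protocols. The authors deposited, for each population, a table of estimated counts. The highest value, 36909, was left out of a check of the values from 1000 up. Of the others, 1557 of 1557 lay on the grid that a collision correction gives for 4096 UMIs of 6 bases, where 62.0% of whole numbers do. This adds 4.41% to the highest member count, 356. Per the submitters' processing notes the build was mm10 and the tools R 3.4.0 and DESeq2 (aligner, counter and strand setting not given in the sources used here). Per the file headers, the authors' deposited result tables hold a mean signal, a log2 fold change, a test score, a p-value and an adjusted p-value.

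Counts were used as deposited. Genotype was tested in each population with edgeR 4.0.16 in R 4.3.3 (TMM, filterByExpr with a minimum count of 10, robust quasi-likelihood, batch term, Benjamini-Hochberg over all genes, threshold 0.05), and on counts summed per ID number. Populations and differences of the genotype effect came from 1 edgeR model of the 18 libraries with ID number as block, in which MPP4 control 2 and MPP4 mutant 2, alone under their ID numbers, carry no information. DESeq2 1.42.0 and limma 3.58.1 served as alternatives. The edgeR genotype tests and the tests involving MPP4 in the population model were run on simulated counts. Those counts had 1 common spread and no batch or ID effect, so they do not check these terms. The DESeq2, limma, shared-spread and MPP1 against HSC tests were not run on simulated counts. CPM used TMM factors over all 18 libraries. Libraries of the same group all differed by more than sampling noise (chi-square over degrees of freedom 2.96 to 73.9).

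Same-numbered mutant and control libraries deviated together in HSC (r = 0.495, 0.200 and 0.224 over genes) but not throughout MPP4 (0.325, -0.021, 0.336 and -0.014). Number alone did not set pairs apart, as HSC mutant 3 had r = 0.237 with HSC control 2. HSC mutant 1 and HSC control 1 are the only HSC libraries of batch A, so number and batch cannot be told apart there. In MPP1 the r of 0.172 decides nothing, because centring 2 libraries per group gives every pair the same size. ID numbers never cross genotypes. Trp53, Mdm2 and Cdkn1a are described in every comparison, with every called member, up to 6 called members per direction between populations and the 4 members of smallest p per genotype comparison; others named were chosen after their values were seen. The members and all lists were chosen with earlier results of these data known. Promoters are from RefSeq (GRCm38.p6) and gene positions from GENCODE on GRCm38. The p53 decamer was searched by its consensus, which covers both strands.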

Additional observations from a re-analysis of the deposited data

Results flagged for a closer look

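Each member was looked at in the MPP4 mutants and in the MPP4 controls, the groups of 4 libraries, for a single library whose gap to its neighbour takes up most of the group's range. Of 61 such groups 6 stood out. The cut-off used passes about 1 in 20 groups of normally distributed values. Some values here rest on few counts and the members share libraries, so that rate does not hold and no excess is read. MPP4 mutant 2, the library with 234977 CPM of erythroid markers, accounts for 3 of them. In it Gadd45a stood at 88.1 CPM (41 counts), against 4.09 to 10.3 CPM in the other MPP4 mutants. Fas, the death receptor, stood at 12.9 CPM (6 counts) in MPP4 mutant 2 and at 0 CPM in the other MPP4 mutants. Sesn1 was low in MPP4 mutant 2, at 70.9 CPM (33 counts), against 115 to 120.4 CPM in the others. MPP4 control 4, with 43666 CPM of erythroid markers, accounts for 2, both on few counts. Eda2r, a receptor of the TNF family, stood at 19.5 CPM (5 counts) in MPP4 control 4, against 0.445 to 0.781 CPM in the other MPP4 controls. Zmat3, which encodes an RNA-binding protein, stood at 31.3 CPM (8 counts) in MPP4 control 4, against 4.01 to 8.53 CPM. The last is Cdkn1a, at 26.7 CPM (60 counts) in MPP4 control 2, the deepest library, against 7.82 to 10.97 CPM in the other MPP4 controls. The part of erythroid RNA in these values was not tested.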

How the results depend on the processing

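The 77 named fold changes were recomputed in 1093 alternative values: 963 kept their direction and side of the threshold, 73 kept direction and lost the call, 1 gained it and 56 turned sign. The number of members called for genotype or for its difference between populations was 0 in 83 of 84 values, the exception being the sums over unfiltered genes (1). Leaving out the 6 libraries over 10000 CPM of other-lineage markers was chosen after the data were seen. For every change below the cause was not tested.

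Members called between MPP4 and HSC numbered 3 in controls alone and 3 to 7 with 1 ID number left out, and between MPP1 and HSC 1 in controls alone. Between MPP4 and MPP1 there was 1 with batch in place of the ID block, 1 in mutants alone, 1 in controls alone and 1 to 2 with 1 ID number left out. Counts over all genes moved more. For genotype they were 22 in HSC (14 with DESeq2, 5 without batch, 13 to 83 with 1 library left out), 18 in MPP1 (5 with the stricter filter, 23 to 75), 8 in MPP4 (31 with DESeq2, 3 without batch, 1 to 20) and 25 in the sums (52 with DESeq2, 5 without batch, 10 to 30). Without a filter there were 5.09 times as many in HSC, 41 in MPP1, 88 in MPP4 and 118 in the sums. The stricter filter left 12 in HSC and 7 in the sums, a spread shared over 18 libraries gave 9 in HSC, 4 in MPP1 and 17 in MPP4, and without the other-lineage libraries there were 54 in MPP1, 26 in MPP4 and 13 in the sums. Between populations, MPP4 against HSC gave 2123 (1154 in mutants alone, 1068 in controls alone), MPP1 against HSC 39 (104 unfiltered, 10 in mutants alone, 5 with batch for ID number, 119 without other-lineage libraries, 19 to 74) and MPP4 against MPP1 1182 (730 with batch for ID number, 617 in mutants alone, 403 in controls alone, 559 to 1284). The genotype difference between MPP4 and HSC gave 3 (18 unfiltered, 0 with the stricter filter, 0 with batch for ID number, 8 without other-lineage libraries, 0 to 10 leaving 1 out), and that between MPP1 and HSC 0 (0 to 3 over all settings).

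None of the values that turned sign passed the threshold. Trp53 for genotype was -0.023 in HSC in batch C and -0.023 without other-lineage libraries (-0.026 to 0.44 leaving 1 out), -0.13 in MPP1 without those libraries (-0.13 to 0.43), -0.039 in MPP4 in batch C (-0.069 to 0.17) and -0.069 to 0.20 in the sums. Mdm2 ran from -0.063 to 0.40 in MPP1, -0.23 to 0.12 in MPP4 and -0.16 to 0.11 in the sums, and Cdkn1a from -0.081 to 0.54 in the sums. Bax in MPP4 was -0.040 in batch C, and Gadd45a in the sums -0.27 without other-lineage libraries. Trp53 ran from -0.0058 to 0.21 for MPP4 against HSC, -0.033 to 0.32 for MPP1 against HSC and -0.16 to 0.080 for MPP4 against MPP1 (0.0099 in controls alone), and Mdm2 from -0.50 to 0.15 in the last. Mdm2 for MPP1 against HSC was -0.0058 unfiltered, -0.0071 with the stricter filter, -0.019 with batch for ID number, -0.13 in controls, -0.015 without other-lineage libraries and -0.32 to 0.26 leaving 1 out, and Cdkn1a 0.26 without those libraries and -3.31 to 0.17. For the genotype difference between MPP4 and HSC, Trp53 was 0.013 with DESeq2 size factors, 0.0029 unfiltered, 0.018 stricter and -0.21 to 0.21 leaving 1 out. Without other-lineage libraries Mdm2 was -0.33, Cdkn1a -0.15 and Trp53inp1 -0.23, and leaving 1 out Mdm2 ran from -0.0078 to 0.17 and Trp53inp1 from -0.0058 to 1.16. Between MPP1 and HSC, Trp53 was -0.085 with batch for ID number, -0.24 without other-lineage libraries and -0.21 to 0.53 leaving 1 out, Mdm2 ran from -0.41 to 0.72, and Cdkn1a was 0.41 with batch for ID number and -5.80 to 5.86 leaving 1 out.

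Same-numbered mutants and controls deviated together in HSC, but within its batch C libraries no clear pairing by number was seen. The replicate block changed no member's call, and over all genes it gave 40 in HSC and 43 in MPP1. Low depth keeps 6 members out of every test and leaves Cdkn1a with wide intervals.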
